A study of Mus musculus with 27 samples.

Results

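G9a loss in D2 neurons of the mouse striatum was examined on 14 of the 27 arrays of the study, chosen by their titles. Of these, 7 came from mutants (3 saline, 4 cocaine) and 7 from controls (3 saline, 4 cocaine). D2 neurons are the striatal projection neurons that carry the dopamine receptor D2. The mutants, labelled Drd-TRAP; Drd2-Cre; G9a fl/fl, carried Cre recombinase driven by the Drd2 promoter, and the controls, labelled Drd2-TRAP; G9a fl/fl, carried none. All of these mice were male, 2 to 5 months old, on a mixed background of C57BL/6 (the G9a line) and 129/Sv (the transgene line) after 2 generations of backcrossing to C57BL/6, and had both copies of G9a floxed. All expressed the ribosomal protein L10a fused to GFP in D2 neurons, so that translating ribosome affinity purification (TRAP) could recover the messenger RNA on the ribosomes of these cells. Each mouse had 8 injections of saline or of cocaine at 20 mg/kg/day and was taken 2 h after the last. Genotype therefore also stands for the Cre transgene. D2 receptors are also found on striatal cholinergic interneurons, so Cre and tag can reach those cells as well. In RNA pooled over cells, more cells of a type and more RNA per cell cannot be told apart.

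G9a, encoded by Ehmt2, is a histone methyltransferase that places mono- and dimethyl marks on lysine 9 of histone H3 in euchromatin, where they go with gene silencing. It works as a dimer with the related enzyme GLP and represses, among others, genes of other lineages in differentiated cells. In the striatum, D2 neurons form the indirect pathway and D1 neurons the direct pathway, and each type has its own receptors, peptides and transcription factors.

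The measurements are log2 levels from whole-genome arrays, and 12017 genes were tested. The number of arrays limits the precision. Between 92.8% and 95.1% of the tested genes lay above 6 on the log2 scale on each D2 array, and arrays of a group correlated with each other by at least 0.987. RNA quality, taken as the 3' minus 5' difference of control probe sets, averaged 2.22 ± 0.162 in mutants and 2.196 ± 0.177 in controls (SD, n = 7 each, exact permutation p = 0.792, 2-sided). The labels of mutant cocaine replicate 4 disagree, with control in the source name and mutant in the title, genotype and description. Its Ehmt2 level of 8.96 lay among those of the other mutants and below every control. On this array, as on every other mutant, the serum protein gene Afp was at least 11.63, against at most 4.86 on every control. The array was kept as a mutant, and counts without it or with it as a control are given beside the results. Control cocaine replicate 3 stood apart in Ttr, a choroid plexus transcript, at 11.40 against 5.40 to 7.96 on the other 6 controls and 6.72, 7.55 and 8.98 in mutants. The labelled cell type held in both genotypes: Penk, the enkephalin precursor, and Drd2 itself were between 12.28 and 14.05 on all 14 arrays, close to the highest values an array gave (14.23 to 14.46).

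Ehmt2 fell in the mutants. It had levels of 8.68, 8.96 and 9.38 (lowest, median and highest array, as for every group of 7) in mutants and 10.67, 10.76 and 11.01 in controls. No mutant array reached the level of any control. The change was -1.82 (log2, SE 0.13, 3.54-fold lower, adjusted p = 4.7e-11 by limma, Benjamini-Hochberg), with -1.91 in saline and -1.74 in cocaine. D1 mutants, made with Drd1-Cre, had a change of similar size (-1.79), and the difference between the cell types was -0.04 (adjusted p = 0.971).

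With saline and cocaine weighted equally, 1011 genes rose in D2 mutants (8.41% of those tested) and 459 fell (3.82%) at an adjusted p under 0.05. The larger changes were nearly all rises: 117 genes rose at least 2-fold and 7 fell at least 2-fold. Of all calls 68.8% were rises, a share that was 58.8% after cyclic loess and 51.4% after median centring of the deposited values, so the balance of small rises and falls depends on the scaling. All 7 mutants lay above all 7 controls for 430 genes (3.58%) and below them for 141 (1.17%). The median change of the risen genes was 0.38 and that of the fallen genes -0.33, against 0.02 over all tested genes. Among the risen genes, 114 had a mean below 6 in D2 controls, near the background of the arrays, where the size of a rise is understated. Without mutant cocaine replicate 4, 894 genes rose and 386 fell, and with it as a control 583 rose and 272 fell, 829 of them among the 1470.

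The change with G9a loss went the same way under both drugs for nearly all called genes. In saline 298 genes rose (2.48%) and 192 fell (1.6%), 490 in all, against 303 without mutant saline replicate 3 and 323 without mutant saline replicate 2. In cocaine 773 rose (6.43%) and 178 fell (1.48%), a sum of 951 that was 758 without mutant cocaine replicate 4, 281 with it as a control and 542 without control cocaine replicate 1. The split in cocaine moved with the scaling, to 569 risen and 270 fallen after cyclic loess and 491 risen and 287 fallen after median centring. These contrasts share no array. Of the 298 genes that rose in saline, 297 were also higher in cocaine mutants, where 60.6% of all tested genes were higher, and 238 also rose there by the test. Of the 192 that fell in saline, 178 were also lower in cocaine mutants, and 91 fell there. The 773 that rose in cocaine were higher in saline for 738, against 49.3% of all tested genes. The difference between the drugs' G9a effects was tested directly, and 0 genes passed in limma (0%), with 583 of 12017 at an unadjusted p under 0.05. The 5 smallest p-values belonged to Mapk8ip2, a kinase scaffold (cocaine minus saline 0.74, adjusted p = 0.561), Acadl, a mitochondrial fatty acid dehydrogenase (1.34), the sialyltransferase St6galnac6 (0.54), Zfp521 (0.49) and Rapgef1, an exchange factor for Rap (0.58). Acadl alone passed when mutant saline replicate 2 was left out (1.68, adjusted p = 0.00554). The plot of the saline against the cocaine effect shows both drugs side by side.

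**Figure D1:**
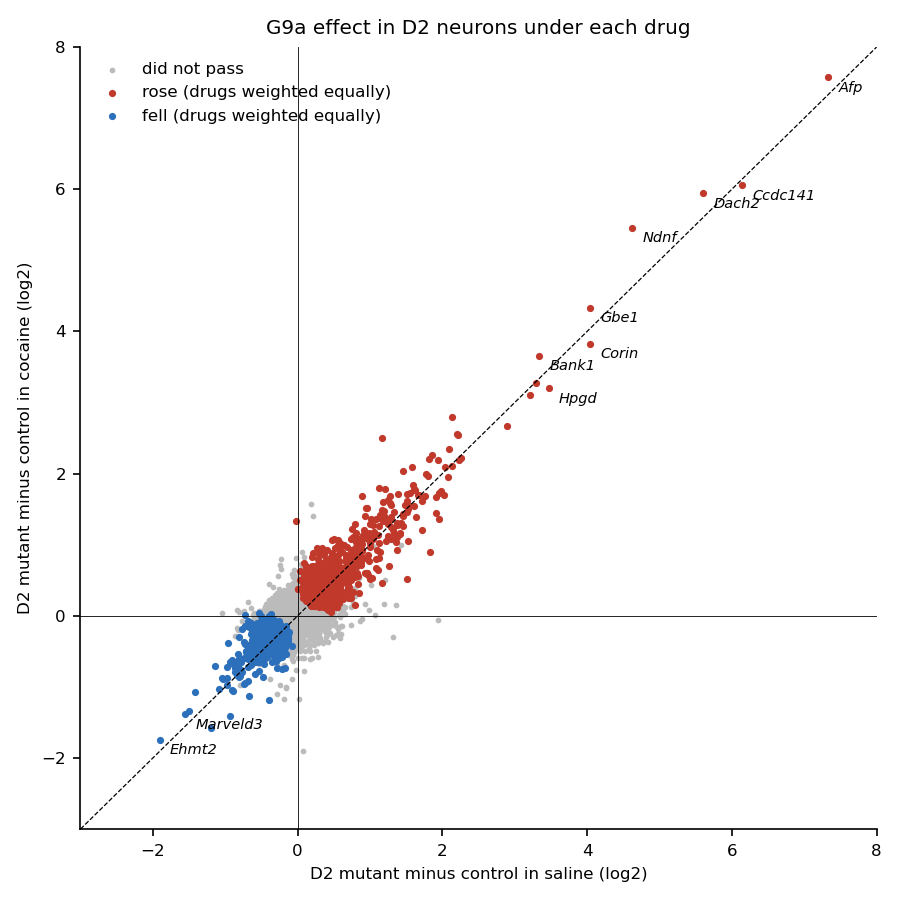
Change in D2 mutants (log2, mutant minus control) in saline (horizontal) and in cocaine (vertical) for each of the 12017 tested genes; red and blue points rose and fell with the drugs weighted equally, grey points did not pass, and the dashed line marks equal change. The genes with the largest rises, from Afp to Hpgd, lie close to the dashed line, as does Ehmt2 at the lower left.

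The 15 largest rises were led by genes that adult striatal neurons are not known for. Afp, alpha-fetoprotein, the main serum protein of the fetus, had levels of 11.63, 11.82 and 12.23 in mutants and 3.88, 4.35 and 4.86 in controls, a change of 7.45 (SE 0.14, 175-fold, adjusted p = 4.83e-23). Ccdc141, a coiled-coil protein best known in heart, had 9.68, 9.80 and 10.14 in mutants and 3.55, 3.78 and 3.94 in controls (6.10, SE 0.11, adjusted p = 4.05e-23). Both genes stood near the floor of the array on every control and in the middle to upper range on every mutant. Dach2, a transcription cofactor of the dachshund family, had 10.22, 10.46 and 10.70 in mutants and 4.03, 4.72 and 5.09 in controls (5.77, SE 0.10). Ndnf, a secreted neurotrophic factor, had 9.74, 10.51 and 10.86 in mutants and 5.01, 5.20 and 5.70 in controls (5.04, SE 0.12). Again no array of one genotype reached the other.

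Gbe1, the branching enzyme of glycogen synthesis, had 9.43, 9.85 and 10.35 in mutants and 5.36, 5.69 and 6.15 in controls (4.18, SE 0.15). Corin, the protease that activates natriuretic peptide in heart, had 8.94, 9.27 and 9.58 in mutants and 4.78, 5.29 and 6.08 in controls (3.93, SE 0.14). Bank1, a scaffold of B cell receptor signalling, had 10.68, 10.88 and 11.17 in mutants and, already above background, 6.96, 7.36 and 7.94 in controls (3.50, SE 0.13). Every mutant array exceeded every control for these genes. Hpgd, which inactivates prostaglandins, had 7.59, 8.18 and 8.65 in mutants and 4.42, 4.83 and 5.00 in controls (3.33), and Acoxl, an acyl-CoA oxidase-like protein, had 8.56, 8.80 and 9.27 in mutants and 5.02, 5.66 and 5.84 in controls (3.29). The serine protease inhibitor Serpinb1b rose by 3.16, the complement regulator Cd55 by 2.79, the protein kinase A inhibitor Pkib by 2.47, the glutathione transferase Gstm7 by 2.38, the lymphocyte inhibitory receptor Btla by 2.38 and Kl, the klotho co-receptor of FGF signalling, by 2.23. All 15 had adjusted p-values of at most 2.92e-08, the value for Pkib, and these rises remained called with every D2 array left out in turn and with the glial marker level as a covariate.

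The promoters of 4 of these risen genes and of 1 fallen gene, Klc3, are shown because their content of CpG, the dinucleotide that DNA methylation acts on, differs. The sequences are those of RefSeq for GRCm38.p6, 250 bases before to 50 after the start, 5′ to 3′, with each CpG in capitals: Afp (chr5:90490464-90490763, plus strand), Bank1 (chr3:136326017-136326316, minus strand), Acoxl (chr2:127854378-127854677, plus strand), Ccdc141 (chr2:77170586-77170885, minus strand) and Klc3 (chr7:19404055-19404354, minus strand).
Afp: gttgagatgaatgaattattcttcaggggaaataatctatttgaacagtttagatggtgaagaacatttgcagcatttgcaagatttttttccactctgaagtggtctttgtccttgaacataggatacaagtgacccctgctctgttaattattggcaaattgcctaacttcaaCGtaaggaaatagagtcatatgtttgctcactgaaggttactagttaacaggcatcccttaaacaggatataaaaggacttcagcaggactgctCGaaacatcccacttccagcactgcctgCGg
Bank1: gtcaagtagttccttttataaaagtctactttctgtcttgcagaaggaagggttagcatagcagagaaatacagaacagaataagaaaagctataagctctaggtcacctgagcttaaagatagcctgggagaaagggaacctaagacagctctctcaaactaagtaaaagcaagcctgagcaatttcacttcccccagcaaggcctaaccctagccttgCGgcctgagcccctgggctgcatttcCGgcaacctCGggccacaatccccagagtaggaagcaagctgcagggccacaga
Acoxl: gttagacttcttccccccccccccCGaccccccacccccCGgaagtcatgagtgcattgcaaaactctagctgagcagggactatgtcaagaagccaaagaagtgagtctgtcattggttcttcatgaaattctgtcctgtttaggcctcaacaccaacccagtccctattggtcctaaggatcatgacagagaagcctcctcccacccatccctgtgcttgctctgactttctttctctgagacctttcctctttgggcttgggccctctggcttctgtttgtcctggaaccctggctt
Ccdc141: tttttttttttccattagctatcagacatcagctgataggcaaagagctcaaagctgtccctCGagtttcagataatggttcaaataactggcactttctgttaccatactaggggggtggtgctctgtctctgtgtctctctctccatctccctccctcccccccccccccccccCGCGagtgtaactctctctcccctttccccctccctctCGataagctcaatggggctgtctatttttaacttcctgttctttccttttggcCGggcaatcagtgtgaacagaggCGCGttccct
Klc3: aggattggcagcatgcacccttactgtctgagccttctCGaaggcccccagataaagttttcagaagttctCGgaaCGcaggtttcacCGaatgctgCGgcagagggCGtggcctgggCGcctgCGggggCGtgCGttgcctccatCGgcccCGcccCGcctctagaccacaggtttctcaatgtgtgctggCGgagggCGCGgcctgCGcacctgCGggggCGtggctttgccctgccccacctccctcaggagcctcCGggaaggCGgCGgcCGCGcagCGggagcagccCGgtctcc

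Afp and Bank1 had 3 CpG each in this window, Acoxl 2, Ccdc141 7 and Klc3 26. These examples do not stand for all of the largest changes. Among the rises Kl had 19, Gbe1 14, Cd55 12 and Hpgd 12, and among the falls Zbtb46 had 1, Apol8 7 and Stat6 8. Promoter sequences were matched to 9681 of the 12017 tested genes by gene identifier. Over 127 promoters of the genes that rose at least 2-fold, the median was 8 CpG and 40.2% had at most 5, a limit chosen after the data were seen. For all risen genes the median was 17 and 19.4% had at most 5 CpG, for fallen genes 20 and 11.7%, and for all tested genes 20 and 13.5%. Genes with low levels have fewer CpG in general, so levels were matched by the mean in D1 controls. Between 6 and 8 on the log2 scale, 46.0% of promoters of genes that rose at least 2-fold had at most 5 CpG, against 19.0% of all tested genes of that level. Below 6 the shares were 43.2% and 32.2%. The hexamers TCCCGC, the core site of the repressor E2F6, and CACGTG, the site of MAX dimers, were searched on both strands because both factors belong to a complex that contains G9a. TCCCGC was in 27.6% of the promoters of genes that rose at least 2-fold and CACGTG in 7.09%. Over all tested genes the shares were 34.0% and 9.91%. The direction for TCCCGC turned with the level in D1 controls: the share was 20.6% against 31.3% of all tested genes between 6 and 8, and 44.4% against 36.5% from 8 upward.

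**Figure D2:**
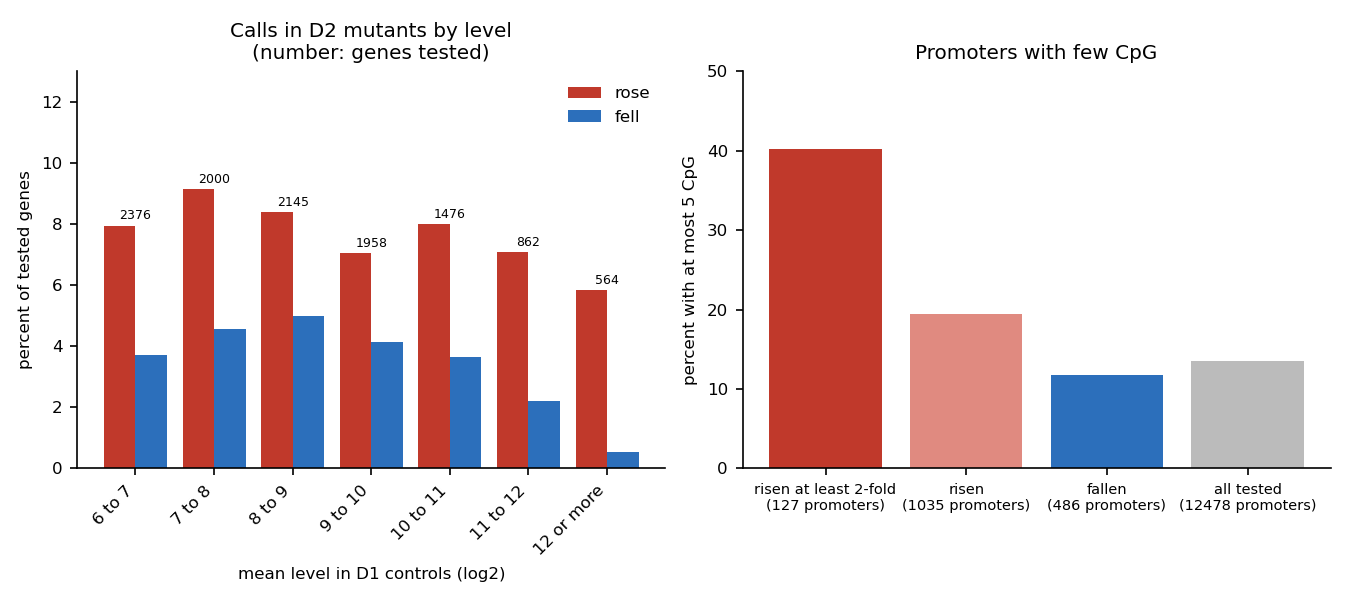
Left, percent of tested genes that rose (red) or fell (blue) in D2 mutants by their mean level in D1 controls (log2, from 6 upward), with the number of genes tested above the bars; 5.85% to 9.15% rose in each bin. Right, percent of promoters with at most 5 CpG among genes risen at least 2-fold, risen, fallen and all tested; the shares were 40.2%, 19.4%, 11.7% and 13.5%.

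By their mean level in D1 controls, arrays that enter neither side of the D2 comparison, 5.85% to 9.15% of the tested genes in each bin from 6 upward rose, close to the 8.41% of all tested genes, and 0.532% to 4.99% fell. Of the 30 tested genes with a mean under 5 there, 21 rose, and of the 606 between 5 and 6, 88 did. Genes this low were tested because they exceeded 6 on at least 3 arrays, which fixes much of these counts, so nothing is read from them.

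The falls were smaller. After Ehmt2 came Marveld3, a tight junction protein, with 5.61, 5.69 and 5.88 in mutants and 6.93, 7.11 and 7.60 in controls (-1.47, SE 0.08, adjusted p = 1.31e-12). Reep6, which shapes the endoplasmic reticulum, had 5.10, 5.39 and 5.79 in mutants and 6.42, 6.68 and 7.29 in controls (-1.42), and Klc3, a kinesin light chain, had 6.18, 6.49 and 6.80 in mutants and 7.44, 7.70 and 7.97 in controls (-1.24). The genotypes did not overlap for any of these. Plxnd1, the receptor for semaphorin 3E, had 7.24, 7.79 and 8.42 in mutants and 8.23, 9.09 and 9.58 in controls, with a small overlap, a change of -1.17 (-0.93 in saline and -1.41 in cocaine, adjusted p = 1.73e-05). Epop, a subunit of Polycomb repressive complex 2, fell by 1.06 and Stat6, the transcription factor of interleukin 4 signalling, by 0.97. The other falls among the 15 largest were those of the copine Cpne2 (-0.97), the apolipoprotein L family member Apol8 (-0.97), the neurotrophic factor Nrtn (-0.96), the Ras association protein Rassf3 (-0.96), the tropomyosin Tpm2 (-0.93), the zinc finger factor Zbtb46 (-0.92), Fst, the activin-binding protein follistatin (-0.90), and Trim25, a ubiquitin ligase of antiviral signalling (-1.38, adjusted p = 0.0433). Trim25 varied widely within groups, 4.83, 5.73 and 6.65 in mutants and 5.51, 7.49 and 8.59 in controls, and its call ended without any 1 of 10 D2 arrays, with adjusted p-values from 0.0569 without control cocaine replicate 4 to 0.146 without control saline replicate 1. Tpm2 fell by 0.70 and no longer passed with the glial marker level as a covariate (adjusted p = 0.126).

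Genes that distinguish the projection neuron types moved in both directions. Of 11 tested D1 neuron markers, 5 rose (45.5%) and 0 fell, with a median of 0.25. Over all tested genes 8.41% rose and 3.82% fell, with a median of 0.02. Zfp521, a zinc finger factor of D1 neurons, had 7.46, 7.58 and 7.75 in mutants and 6.20, 6.45 and 6.82 in controls (1.04, SE 0.06, adjusted p = 7.65e-13). Isl1, the transcription factor that specifies D1 neurons, had 7.82, 8.03 and 8.29 in mutants and 6.52, 7.03 and 7.58 in controls (0.98, SE 0.12). All mutants lay above all controls for both. Drd1, the D1 receptor, had 10.29, 10.49 and 10.65 in mutants and 9.71, 9.79 and 10.50 in controls (0.54, SE 0.11, adjusted p = 0.00113), and 1 control array, saline replicate 1 at 10.50, lay within the mutant range. Lrpprc, an RNA-binding protein of mitochondria, rose by 0.44 and Slc35d3, a sugar transporter of D1 neurons, by 0.56 (adjusted p = 0.0175). Unlike the other risen markers, Lrpprc was not among the 100 genes most enriched in D1 over D2 controls under either drug. Its rise is therefore not read as a change of neuron identity. The call of Slc35d3 ended without control saline replicate 2 (0.48, adjusted p = 0.0626) or replicate 3 (0.49, adjusted p = 0.0579). Tac1, the substance P precursor, did not pass (0.19, adjusted p = 0.185), nor did Pdyn, the dynorphin precursor (-0.01).

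Of 10 tested genes listed as D2 neuron markers, 4 fell, 2 rose and 4 did not pass, with a median of -0.03. Drd2 had 12.28, 12.83 and 12.96 in mutants and 12.94, 13.16 and 13.60 in controls (-0.49, SE 0.11, -0.63 in saline and -0.36 in cocaine, adjusted p = 0.00315). The highest mutant array only just exceeded the lowest control. The transgenes here use Drd2 regulatory sequence, and of 7 tested genes made up of Drd2 and its chromosomal neighbours Drd2 alone was called. Besides Plxnd1 and Fst, Cd4, a co-receptor best known from T cells, fell (-0.29). Plxnd1 and Cd4 were not among the 100 genes most enriched in D2 over D1 controls under either drug, unlike Drd2 and Fst. The falls of Plxnd1 and Cd4 are therefore not read as a change of D2 neuron identity, though the count of 4 falls and the median include both genes. Upb1, an enzyme of pyrimidine breakdown, rose by 0.61 and Ptprm, a receptor tyrosine phosphatase, by 0.55. Penk, with medians of 13.93 in mutants and 13.98 in controls, and the orphan receptor Gpr6 (-0.06) did not pass. Among 21 tested markers of all striatal projection neurons 1 rose (4.76%), the transcription factor Foxp2 (0.33, adjusted p = 0.00698), and the median was -0.001.

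Among wider sets of genes that differ between the neuron types, members of both sets were called more often than all tested genes, while the medians stayed close. The 100 genes most enriched in each neuron type over the other were chosen on the control arrays of 1 drug and read on the arrays of the other. Chosen in saline and read in cocaine, 56 of the 100 D1-enriched genes were higher in mutants, 20 rose and 5 fell, with a median of 0.07. For D2-enriched genes the counts were 62 higher, 18 risen and 4 fallen, with a median of 0.08. Over all tested genes in cocaine 60.6% were higher, 6.43% rose and 1.48% fell, with a median of 0.05. Chosen in cocaine and read in saline, 52 D1-enriched genes were higher, 7 rose and 2 fell, with a median of 0.02. Of the D2-enriched genes 57 were higher, 8 rose and 4 fell, with a median of 0.06. Over all tested genes in saline 49.3% were higher, 2.48% rose and 1.6% fell, with a median of -0.002. No test of these counts was made.

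**Figure D3:**
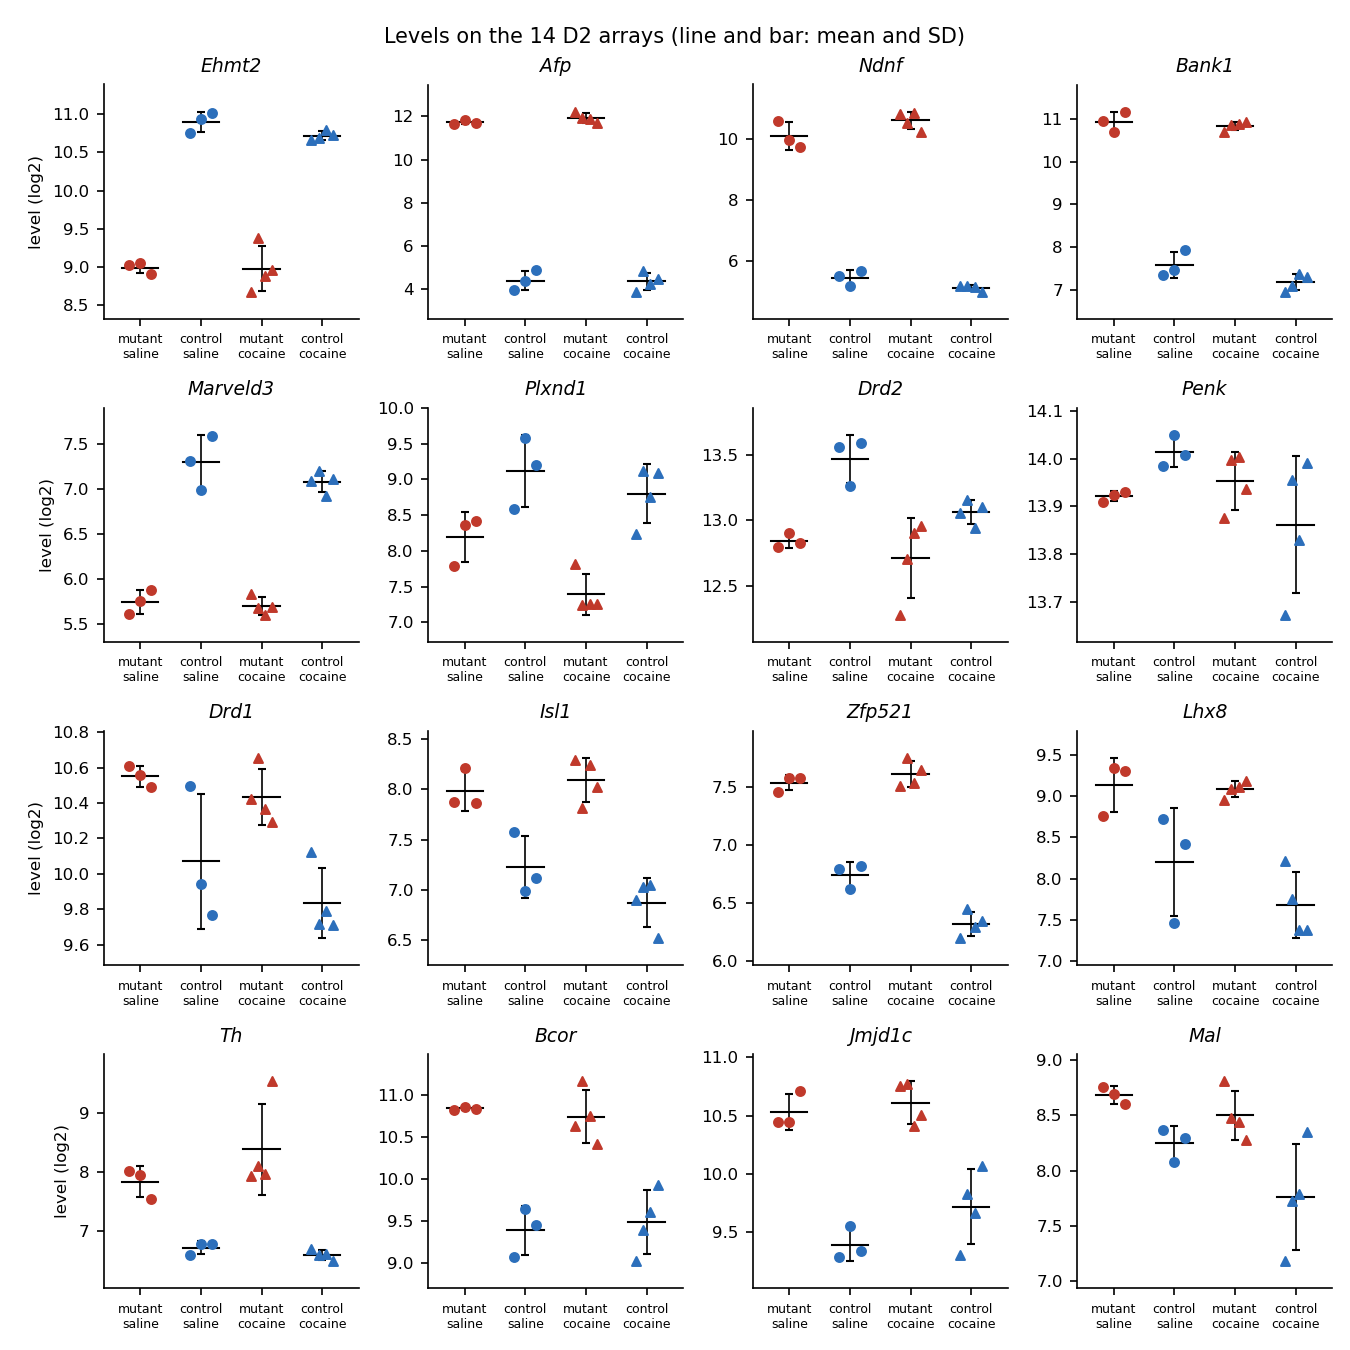
Level (log2) of 16 genes on each of the 14 D2 arrays, by genotype and drug; red marks mutants and blue controls, circles saline and triangles cocaine, and the line and bar give the mean and SD. Mutants and controls do not overlap for Ehmt2, Afp, Ndnf, Bank1, Marveld3, Isl1, Zfp521, Lhx8, Th, Bcor and Jmjd1c, and overlap for Plxnd1, Drd2, Penk, Drd1 and Mal.

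Cholinergic interneurons also carry D2 receptors, and 2 of their 3 tested markers rose (66.7%, against 8.41% of all tested genes). Lhx8, the transcription factor that specifies these cells, had 8.76, 9.10 and 9.34 in mutants and 7.38, 7.75 and 8.72 in controls (1.17, SE 0.15, adjusted p = 5.79e-06). Tacr3, the neurokinin receptor NK3, had 7.50, 7.99 and 8.16 in mutants and 6.08, 6.68 and 7.26 in controls (1.15, SE 0.16). All mutants exceeded all controls for both. Slc18a3, the vesicular acetylcholine transporter, had 5.53, 6.21 and 6.65 in mutants and 5.27, 5.46 and 6.40 in controls, and did not pass (0.37, adjusted p = 0.155). With the glial marker level as a covariate all 3 passed. The other 4 markers on the array stayed below 6 on all D2 arrays.

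Among 9 tested markers of GABAergic interneurons 1 rose (11.1%, against 8.41% of all tested genes). This was Th, tyrosine hydroxylase, with 7.54, 7.96 and 9.54 in mutants and 6.48, 6.60 and 6.78 in controls (1.46, SE 0.18, adjusted p = 2.18e-06). Ddc, the next enzyme of dopamine synthesis, had 8.37, 8.68 and 10.63 in mutants and 7.27, 7.64 and 7.87 in controls (1.34, SE 0.24, adjusted p = 0.000303). Mutant cocaine replicate 4 was the highest array for both, at 9.54 for Th and 10.63 for Ddc. The other mutants also lay above all controls. Without that array the changes were 1.27 (adjusted p = 1.54e-08) for Th and 1.09 (adjusted p = 2.43e-05) for Ddc. With it counted as a control neither passed, at 0.97 (adjusted p = 0.0622) for Th and 0.80 (adjusted p = 0.164) for Ddc. Of 5 cortical excitatory markers Nrn1, neuritin, rose (1.44, adjusted p = 0.00191). It was the only 1 of them with a positive change, and the median of the list was -0.11. Nrn1 was also higher in D1 than in D2 controls, by 1.44 in saline and 1.74 in cocaine.

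Markers of oligodendrocytes, and less so of astrocytes, were higher in mutants, and the part of this in the other changes was not tested. The mean level of the astrocyte, oligodendrocyte and microglia markers was 7.889 ± 0.128 in mutants (7.733 to 8.056) and 7.5 ± 0.237 in controls (7.001 to 7.717; SD, n = 7 each), without overlap. Of 10 tested oligodendrocyte markers 7 rose (70.0%, against 8.41% of all tested genes) and 0 fell, with a median of 0.45. Ermn, ermin, a cytoskeletal protein of myelin, rose most, with 8.03, 8.19 and 8.61 in mutants and 5.49, 6.55 and 7.02 in controls (1.75, adjusted p = 4.16e-07). The others were Ugt8a, which makes galactosylceramide (0.80), the myelin proteins Mobp (0.60), Mal (0.59), Mbp (0.54), Opalin (0.34) and Cnp (0.31). Mbp did not pass without mutant saline replicate 2 (0.51, adjusted p = 0.0525), and Mobp did not without any 1 of 8 arrays, for example control saline replicate 1 (0.57, adjusted p = 0.0779). Mal had 8.28, 8.60 and 8.81 in mutants and 7.18, 8.08 and 8.37 in controls, and the groups overlapped.

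Of 8 astrocyte markers 1 rose (12.5%), the gap junction protein Gja1 (0.62, median of the list 0.30). Gja1 did not pass without control saline replicate 1 (0.58, adjusted p = 0.0557) or mutant saline replicate 2 (0.55, adjusted p = 0.0626). The precursor receptor Pdgfra (0.64), the microglial protease Ctss (0.68) and the pericyte gene Rgs5 (0.87) also rose, each the single gene called of its list. The medians of these lists were 0.19 for oligodendrocyte precursors, -0.07 for microglia, and -0.03 for endothelial and mural cells. Of the microglia markers 2 of 5 were higher in mutants, and of the endothelial and mural cell markers 3 of 6. Gja1, Pdgfra, Ctss and Rgs5 did not pass with the glial covariate (adjusted p = 0.986, 0.102, 0.829 and 0.172). With the glial mean as a covariate, 461 genes passed in place of 1470 (303 risen and 158 fallen), and 446 of them were among the 1470. The glial mean did not overlap between the D2 genotypes, so this fit cannot separate it well from genotype and loses precision. A call can end while its change stays, as for Drd1 (0.54 in both fits). The part of glia in the lost calls was not tested. Of the oligodendrocyte markers, from which the covariate is partly made, Ermn alone still passed. Drd1 (0.54, adjusted p = 0.0546) and Drd2 (-0.39, adjusted p = 0.224) no longer passed, while Isl1, Zfp521, Lhx8, Tacr3 and all of the 15 largest rises did. Of the D1 neuron markers 3 rose and 0 fell with this covariate (median 0.14). Of the genes listed as D2 neuron markers 2 rose and 2, Plxnd1 and Fst, fell (median -0.25). In D1 mutants Ermn rose as well (1.57) and 0 of the other 9 oligodendrocyte markers did.

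The counts of called members of a list stand against 8.41% risen and 3.82% fallen over all tested genes. A list counts only members above 6 on at least 3 arrays, so a member below 6 in controls can enter it through the mutants. Where many members lay below 6, the filter fixes part of the count. Of 27 tested genes of the H3K9 methylation machinery, 2 rose (7.41%) and 3 fell (11.1%), with a median of -0.01. Jmjd1c, a JmjC family protein described as an H3K9 demethylase, had 10.41, 10.51 and 10.78 in mutants and 9.29, 9.55 and 10.07 in controls (1.02, SE 0.11, adjusted p = 2.44e-07), without overlap. In D1 mutants its change was 0.02, and the difference between the cell types passed (1.00, adjusted p = 0.000961), though not as the median of its probe sets (0.50). Besides Ehmt2, Cbx5, the heterochromatin protein HP1 alpha, fell (-0.30, adjusted p = 0.00105). Of 29 Polycomb genes 4 rose (13.8%) and 3 fell (10.3%). Bcor, a corepressor in a variant of Polycomb complex 1, had 10.42, 10.83 and 11.17 in mutants and 9.02, 9.45 and 9.92 in controls (1.36, SE 0.15, adjusted p = 2.62e-07), also without overlap. Cbx8, a chromobox subunit, rose by 0.40, and Epop had 4.61, 5.60 and 6.05 in mutants and 5.89, 6.61 and 6.76 in controls. Of 13 genes of DNA methylation the demethylating enzymes Tet1 (0.76) and Tet2 (0.72) rose, and neither passed with the glial covariate (adjusted p = 0.329 and 0.253). Of 17 histone deacetylases 0 were called. Germline genes, often named with G9a, were mostly below the filter: 7 of 43 on the array were tested, and 1 was called, the RNA-binding protein Dazl (-0.56). With the glial covariate 1 H3K9 gene rose and 1 fell, and 1 Polycomb gene rose and 2 fell.

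Several genes of heart and skeletal muscle rose. Of 40 striated muscle genes on the array, 17 stayed below 6 on all D2 arrays and 22 were tested. Of these 22, 8 rose and 1 fell, although the median was 0.02, the same as over all tested genes. Ccdc141 lay below 6 on every D2 control and above it on every D2 mutant, so the filter admitted it through the mutants. Besides Ccdc141 and Corin, the cardiac troponin T gene Tnnt2 had 9.31, 9.68 and 9.86 in mutants and 7.64, 8.01 and 8.38 in controls (1.61, SE 0.12, adjusted p = 3.14e-10). Casq2, the calcium store protein calsequestrin of heart, had 8.23, 8.52 and 8.65 in mutants and 6.66, 6.92 and 7.29 in controls (1.54, SE 0.11). Every mutant array exceeded every control for both. The slow muscle troponins Tnni1 (1.34) and Tnnt1 (0.80) rose and did not pass with the glial covariate (adjusted p = 0.34 and 0.102). Of 6 tested fetal liver and serum protein genes Afp and its neighbour in the albumin family, Afm, rose. Afm had 7.17, 7.52 and 7.70 in mutants and 5.42, 6.04 and 6.24 in controls (1.49, SE 0.13). Of 17 tested transcription factors of other tissues 2 rose, one of them Dach2. Afp and Dach2, like Ccdc141, lay below 6 on every D2 control, so the filter fixes part of these counts. With the glial covariate 4 muscle genes rose and 0 fell.

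Immune genes moved both ways, 9 up and 8 down of 35 tested, with a median of -0.01. Besides Bank1 and Cd55, the risen ones included B2m, the light chain of MHC class I (0.81), and the class I heavy chains H2-D1 (0.59) and H2-K1 (0.42). None of these 3 passed with the glial covariate (adjusted p = 0.165, 0.188 and 0.226). Il17rc had 7.45, 7.61 and 7.92 in mutants and 7.87, 8.46 and 8.65 in controls (-0.77, adjusted p = 0.000109), and Il17ra had 6.11, 6.24 and 6.35 in mutants and 6.51, 6.65 and 6.77 in controls (-0.41). Both encode receptors for interleukin 17. Il1rap, the shared subunit of interleukin 1 receptors, fell by 0.62 and did not pass with the glial covariate (adjusted p = 0.101). With the covariate 2 immune genes rose and 3 fell.

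Of 14 tested glutathione transferases 5 rose and 0 fell, with a median of 0.18. Gstm7 had 9.09, 9.20 and 9.34 in mutants and 6.64, 6.81 and 7.05 in controls. Its second probe set differed by -0.07 (log2). Gstm6 had 7.94, 8.32 and 8.57 in mutants and 6.83, 7.15 and 7.39 in controls (1.19, adjusted p = 2.93e-08). Gsta3 rose by 1.28, Gsto1 by 0.42 and Gstm5 by 0.37. The Gstm genes are near copies of one another, so probes may not keep them apart. Of 30 tested imprinted genes 7 rose and 0 fell, with a median of 0.15. Plagl1, a zinc finger factor expressed from the paternal copy, had medians of 10.15 in mutants and 8.66 in controls (1.51, SE 0.07, adjusted p = 3.33e-15), without overlap. Ddc and the noncoding RNA Meg3 (0.55) were others. Of 12 tested clustered protocadherins, adhesion proteins of neurons, all had positive changes and 5 of the beta cluster rose: Pcdhb15 (1.28), Pcdhb21 (0.95), Pcdhb16 (0.81), Pcdhb22 (0.76) and Pcdhb3 (0.58). These are also close paralogs. In D1 mutants 8 of the 12 rose. With the glial covariate the risen members in D2 mutants were 3 of the glutathione transferases, 2 of the imprinted genes and 3 of the protocadherins, and 0 fell.

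**Figure D4:**
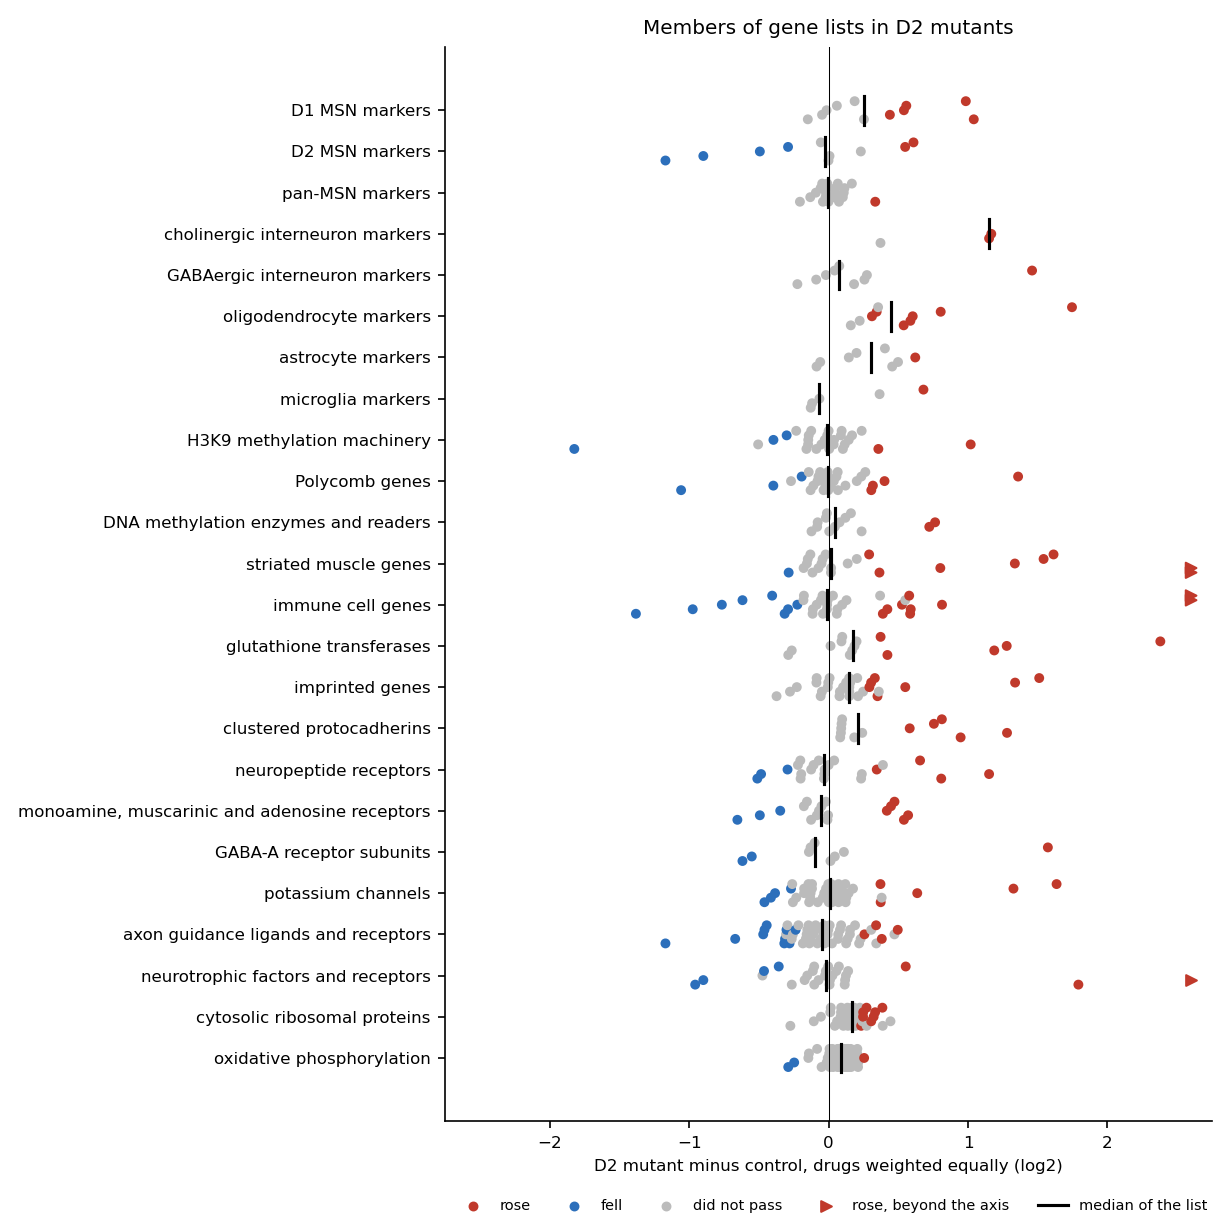
Change in D2 mutants (log2, drugs weighted equally) of each tested member of 24 gene lists; red points rose, blue points fell, grey points did not pass, and the black line is the median of the list. Triangles at the right edge are members beyond the axis, such as Ccdc141, Corin, Bank1, Cd55 and Ndnf. Within most lists a few members moved far while the median stayed near 0.

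Lists of neuronal signalling genes ranged from below to well above the shares of all tested genes (8.41% risen and 3.82% fallen). Of 18 neuropeptide precursors 2 rose (11.1%) and 1 fell (5.56%). The granins, which pack peptides into dense core vesicles, were the risen ones. Chga had 10.16, 10.37 and 10.54 in mutants and 9.12, 9.60 and 9.77 in controls (0.82, adjusted p = 2.06e-07), and Scg2 had 9.57, 9.95 and 10.22 in mutants and 8.99, 9.24 and 9.35 in controls (0.71). Neither overlapped. Of 22 peptide receptors 4 rose and 3 fell, among them the neurotensin receptor Ntsr2 (0.81) and the kappa opioid receptor Oprk1 (-0.48). Of 17 monoamine, muscarinic and adenosine receptors 5 rose (29.4%) and 3 fell (17.6%). Htr2c, the serotonin 2C receptor, had 10.12, 10.36 and 10.65 in mutants and 10.88, 11.07 and 11.21 in controls (-0.65, SE 0.09, adjusted p = 1.38e-05), without overlap. The alpha-2C adrenoceptor Adra2c (0.57) and the serotonin 1B receptor Htr1b (0.47) rose. They did not pass with the glial covariate (adjusted p = 0.074 and 0.322), and Adra2c did not pass as the median of its probe sets (0.17, adjusted p = 0.143).

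Of 47 genes of cAMP and DARPP-32 signalling, the main cascade under the D2 receptor, 3 rose and 0 fell: Pkib, the adenylyl cyclase Adcy2 (0.74) and the phosphodiesterase Pde4d (0.36). Of 17 regulators of G protein signalling 4 rose and 2 fell, and Rgs14 had 9.95, 10.10 and 10.13 in mutants and 10.34, 10.60 and 10.78 in controls (-0.50, SE 0.06, adjusted p = 3.89e-07). Its genotypes did not overlap.

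Gabrb1, the beta 1 subunit of GABA-A receptors, had 11.46, 11.68 and 11.73 in mutants and 9.84, 10.09 and 10.23 in controls (1.57, SE 0.06, adjusted p = 4.22e-16), 1 of 3 called among 9 tested subunits. The alpha 5 subunit Gabra5 fell (-0.62). Of 19 glutamate receptor genes 1 rose and 2 fell, the metabotropic receptors Grm8 (-0.80) and Grm3 (-0.41). Of 45 potassium channel genes 5 rose and 4 fell. Kcnt2, a sodium-activated channel, had 6.08, 6.16 and 6.62 in mutants and 4.72, 4.86 and 5.25 in controls (1.33, SE 0.13), and the modifier subunit Kcng1 rose by 0.64. Kcna6, a Shaker channel, rose on the probe set used (1.64) and fell as the median of its probe sets (-0.36, adjusted p = 0.00222), so its direction is not settled. The A-type channel Kcnd1 fell (-0.38).

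Of 54 axon guidance genes 4 rose and 10 fell, with a median of -0.05. Apart from Plxnd1, the ephrin Efnb3 had 9.58, 9.81 and 10.02 in mutants and 10.05, 10.22 and 10.58 in controls (-0.47, adjusted p = 1.58e-05), and the repellent ligand Slit2 fell by 0.67. The semaphorin Sema3a had 9.31, 9.39 and 9.51 in mutants and 8.61, 8.97 and 9.14 in controls (0.50), higher on every mutant array. Of 27 neurotrophic genes 3 rose and 4 fell. Besides Ndnf, the BMP-binding protein Bmper had 9.41, 9.75 and 10.10 in mutants and 7.69, 7.94 and 8.18 in controls (1.79, SE 0.11). Nrtn, neurturin, had 7.70, 7.95 and 8.09 in mutants and 8.70, 8.92 and 9.10 in controls, without overlap, and its relative Gdnf fell (-0.46, adjusted p = 0.0123). With the glial covariate 1 axon guidance gene rose and 4 fell, 2 neurotrophic genes rose and 2 fell, 3 potassium channel genes rose and 1 fell, and 0 monoamine, muscarinic and adenosine receptors rose and 1 fell.

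Of 25 immediate early genes 3 rose, including Gadd45g (0.78) and the pentraxin Nptx2 (0.39), and 0 fell. Of 42 cytosolic ribosomal proteins 8 rose and 0 fell (median 0.17), and 0 passed with the glial covariate. In cocaine 17 of the 42 rose (median 0.32), against 6.43% of all tested genes, and in saline 1 did (median 0.03), against 2.48%. For cocaine minus saline 0 of the 42 passed (median 0.28). Of 68 oxidative phosphorylation genes 1 rose and 2 fell (median 0.09). Of 38 heat shock genes 1 rose, the co-chaperone Bag3 (0.79), and 2 fell. Of 28 sodium and calcium channel genes 1 rose and 1 fell, as did 1 and 1 of 20 cholesterol synthesis genes. Of 4 tested ependyma and choroid plexus markers 2 rose, including Kl, and the 1 tested blood marker was not called.

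The same question asked in D1 neurons, with 7 mutant and 6 control arrays that share none with D2, gave 373 risen (3.1%) and 134 fallen genes (1.12%). The D1 mutants (3 saline, 4 cocaine) were labelled Drd1-TRAP, Drd1-Cre and G9a fl/fl, and the D1 controls (2 saline, 4 cocaine) lacked Cre. With the drugs weighted equally, the 2 saline controls carry as much weight as the 4 cocaine controls. Of the 1011 genes that rose in D2 mutants, 817 were also higher in D1 mutants, where 54.0% of all tested genes were higher, and 263 rose there. Of the 459 that fell, 349 were also lower in D1 mutants and 89 fell there. Tested directly, the effect was more positive in D2 than in D1 neurons for 79 genes (0.657%) and more negative for 40 (0.333%), 119 in all. Without mutant cocaine replicate 4 of the D2 mice 87 differed, and with it as a control 18 did. Of the 15 largest rises in D2 mutants 13 also rose in D1 mutants. Afp had changes of 7.45 in D2 and 6.76 in D1 mutants, Dach2 of 5.77 and 6.17, and Corin of 3.93 and 3.58. None of these 3 differed by the test.

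The largest difference was that of Ndnf, 5.04 in D2 and -0.29 in D1 mutants (difference 5.33, adjusted p = 3.89e-17). Hpgd (3.33 in D2 and 0.29 in D1), Acoxl (3.29 and 0.57), Serpinb1b (3.16 and 1.21) and the annexin Anxa10 (1.88 and -0.02) followed. Btla, Cd55, Gbe1, the T cell adhesion molecule Cd2 and Bcor completed the 10 largest on this side, with differences of 1.66, 1.64, 1.54, 1.38 and 1.36. Ndnf, Hpgd, Acoxl, Anxa10, Btla, Cd55 and Cd2 lay below 6 on every D2 control. The filter could therefore admit them through mutants, and it fixes part of this ranking. Gse1, a corepressor partner, also rose in D2 mutants (1.29) and did not pass in D1 mutants (-0.05, difference 1.34). Isl1, Zfp521, Tacr3 and Upb1 were further genes with a positive difference, as was Lhx8 (1.11, adjusted p = 0.0122, and 0.0569 without D1 control saline replicate 1).

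On the other side stood genes that rose more in D1 mutants or fell in D2 mutants. Gtf2a1l, a germ cell form of a general transcription factor, did not pass in D2 mutants (-0.14) and rose in D1 mutants (1.87, difference -2.01, adjusted p = 1.99e-10). The cystatin Cst12 (0.75 in D2 and 2.11 in D1) and the DNA translocase Zranb3 (1.39 and 2.72) rose in both, and more in D1. Crct1, an epidermal gene (-1.23), the adhesion molecule Ceacam10 (-0.99) and the lymphocyte antigen Cd52 (-0.92) did not pass in D2 mutants. Ceacam10 and Cd52 lay below 6 on all D2 arrays (at most 5.55 and 5.18), so the filter admitted them through D1 arrays. Rassf3 fell in D2 mutants (-0.96) and did not pass in D1 mutants (0.12). Npy1r, the neuropeptide Y receptor (-1.22), the kinase Pak6 (-0.79) and the zinc finger gene Zfp775 (-0.77) were the others of the 10 largest on this side. They no longer passed without D1 control saline replicate 1 (adjusted p = 0.0556, 0.0638 and 0.0685). Without that array 50 genes differed between the cell types in place of 119, without D1 control saline replicate 2 72 did, and without D2 mutant saline replicate 2 71 did. Fst fell in both, and more in D1 mutants (-1.75), a difference that no longer passed without any 1 of 8 of the 27 arrays.

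**Figure D5:**
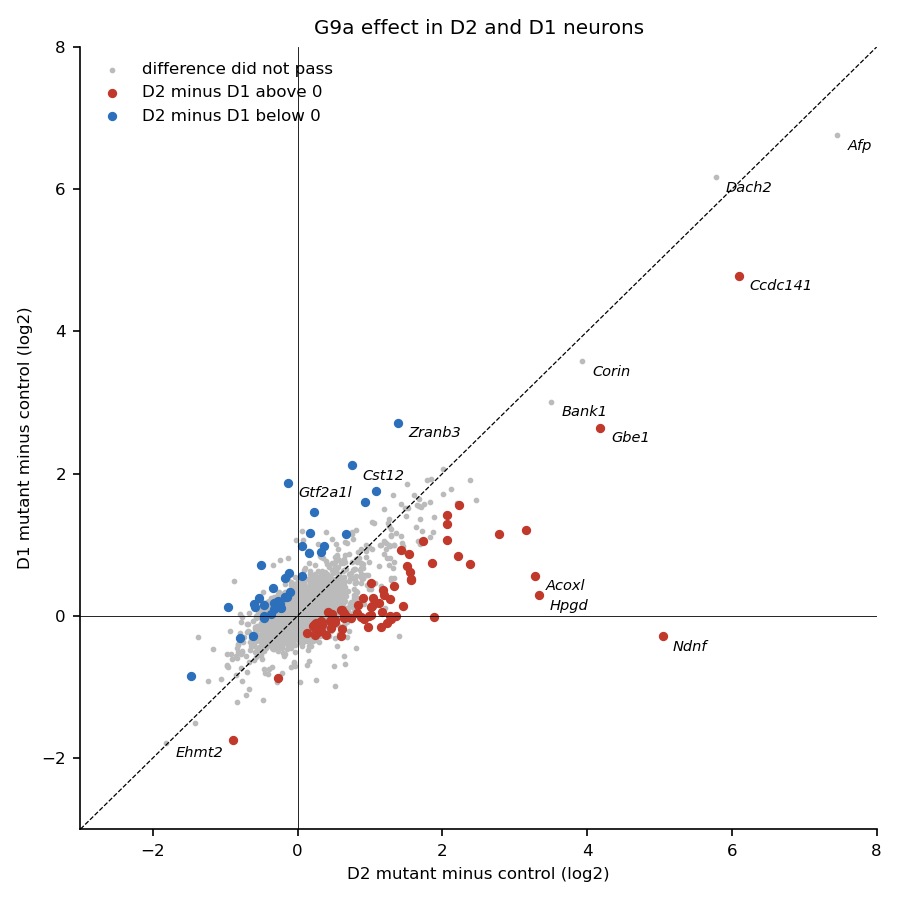
Change in mutants (log2, drugs weighted equally) in D2 neurons (horizontal) and D1 neurons (vertical) for each of the 12017 tested genes; red and blue points have a D2 minus D1 difference above and below 0 that passed, and the dashed line marks equal change. Afp, Dach2, Corin, Bank1 and Ehmt2 lie near the dashed line, while Ndnf, Hpgd and Acoxl lie between -0.29 and 0.57 on the vertical axis.

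Risen genes often lay next to each other on a chromosome. By gene order in RefSeq, 26.2% of risen genes and 31.6% of those risen at least 2-fold had a risen tested gene as a direct neighbour, against 16.0% of all tested genes. For falls, 10.5% of fallen genes had a fallen neighbour, against 7.43%. A run of 6 on chromosome 14 included Kctd6, Fam107a, Cfap20dc and Fhit. Its largest members were Cfap20dc (1.26 in D2 and 1.27 in D1 mutants), and Fhit, a nucleotide hydrolase (0.90 and 0.53). Another run on chromosome 14 joined the glypicans Gpc5 (1.33) and Gpc6 (0.38) with Dct, an enzyme of melanin synthesis (1.32), and 1 smaller rise. On chromosome 3 Gstm5, Gstm7 and Gstm6 lay side by side, and on chromosome 15 Amhr2, a hormone receptor (1.07), lay among smaller rises. A run of 6 on chromosome 10 held small rises, the largest that of Tpd52l1 (0.65). Neighbouring genes share their local strain background, and its part in these runs was not tested.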

How the data were processed

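The deposited values are log2 intensities that the authors obtained by RMA. The submitters' processing notes name Expression Console 1.1. RMA subtracts background, equalises the distributions of the arrays and summarises each probe set, so a shift shared by most genes is removed. No further normalization was applied. Of 45101 probe sets, 64 controls were left out, 34945 had 1 gene symbol in the platform annotation of 2016, 932 had several and 9160 had none. Each of 18193 symbols was represented by its probe set of highest mean over 27 arrays, and 12017 genes above 6 (log2) in at least 3 arrays were tested. All columns belonged to samples described here (0 did not).

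Group means of all 27 arrays were fitted with limma 3.58.1 (lmFit, eBayes, R 4.3.3), and p-values were adjusted by the Benjamini-Hochberg method over all tested genes, with 0.05 as the threshold. The fit was tested on simulated data. Samples were grouped by title, and replicate numbers were not taken to pair the mice. Named genes were the 15 largest passing changes in each direction that had the same sign in both drugs, Ehmt2, the neuron type markers, in each remaining list at most 4 genes ranked by p-value, and the largest cell type differences (up to 10 in each direction). Further called list members, and neighbouring genes, were named after their values were seen. The genes and lists were chosen with earlier results of these data known. Alternatives were other scalings, filters, probe set rules, array weights, covariates (RNA quality, glial markers), a replicate block, a fold threshold and leaving out each array.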

Additional observations from a re-analysis of the deposited data

Results flagged for a closer look

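Among 284 groups of 4 arrays, 1 for each named gene, genotype and cocaine group, 21 had an array far from the other 3 (a gap above 0.829 of the group's range). Chance gives about 1 in 20. The mutant cocaine replicate 1 array stood at 8.66 for Cd4 (nearest 9.11), 7.58 for Gpc5 (nearest 6.72), 7.95 for Kcng1 (nearest 8.36) and 7.82 for Plxnd1 (nearest 7.25). The mutant cocaine replicate 2 array stood at 10.54 for Chga (nearest 10.37), 12.03 for Htr1b (nearest 11.79) and 9.80 for Kcna6 (nearest 9.57). The mutant cocaine replicate 4 array stood at 6.99 for Bag3 (nearest 7.50), 10.63 for Ddc (nearest 8.68) and 9.54 for Th (nearest 8.10). The control cocaine replicate 1 array stood at 5.89 for Epop (nearest 6.59), 6.30 for Slc18a3 (nearest 5.46), 6.71 for Tnni1 (nearest 7.39) and 6.70 for Tnnt1 (nearest 7.47). The control cocaine replicate 2 array stood at 8.48 for B2m (nearest 7.88). The control cocaine replicate 3 array stood at 7.59 for Slc35d3 (nearest 7.36) and 11.40 for Ttr (nearest 6.24). The control cocaine replicate 4 array stood at 5.74 for Afm (nearest 6.21), 6.72 for Grm8 (nearest 6.05), 5.01 for Ndnf (nearest 5.17) and 7.64 for Oprk1 (nearest 7.12). 

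The change with G9a loss differed between D2 and D1 neurons, by the test of the difference itself, for 41 of the named genes. Some of them, such as Ceacam10 and Cd52, were near background in D2 neurons and were admitted by the filter through D1 arrays. The D2 minus D1 difference (log2) was above 0 for Ndnf (5.33), Hpgd (3.04), Acoxl (2.72), Serpinb1b (1.95), Anxa10 (1.90), Btla (1.66), Cd55 (1.64), Gbe1 (1.54) and Cd2 (1.38). It was smaller but also above 0 for Bcor (1.36), Gse1 (1.34), Ccdc141 (1.31), Tacr3 (1.30), Lhx8 (1.11), Gabrb1 (1.07), Gsta3 (1.04), Jmjd1c (1.00), Isl1 (0.99), Kcnt2 (0.91), Fst (0.85), Upb1 (0.80), Plagl1 (0.80), Zfp521 (0.79), Adcy2 (0.78), Kl (0.68), Casq2 (0.67) and Pdgfra (0.65). It was below 0 for Gtf2a1l (-2.01), Cst12 (-1.36), Zranb3 (-1.33), Crct1 (-1.23), Npy1r (-1.22), Rassf3 (-1.08), Ceacam10 (-0.99), Cd52 (-0.92), Pak6 (-0.79), Zfp775 (-0.77), Marveld3 (-0.62), Efnb3 (-0.43), Rapgef1 (-0.41) and St6galnac6 (-0.39). With D2 mutant cocaine replicate 4 counted as a control, the difference still passed for Anxa10, Bcor, Btla, Cd52, Ceacam10, Crct1, Cst12, Gse1, Gtf2a1l, Hpgd, Ndnf, Npy1r and Zranb3. Without 1 of 27 arrays at a time, the differences of Adcy2, Casq2, Efnb3, Fst, Pdgfra, Rapgef1 and St6galnac6 no longer passed for 5 to 20 of the arrays left out, and those of Kl, Kcnt2, Lhx8, Marveld3, Npy1r, Pak6 and Zfp775 for 1. With the glial marker covariate the differences of Adcy2, Casq2, Efnb3, Fst, Kcnt2, Pak6, Pdgfra, Rapgef1, St6galnac6 and Zfp775 no longer passed.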

How the results depend on the processing

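With the drugs weighted equally 1470 genes passed. The number was 2293 with array weights, 461 with the glial marker covariate, 110 against a fold of 1.5 and 855 with D2 mutant cocaine replicate 4 as a control. Leaving out 1 array gave 1114 to 1675. In saline 490 passed, against 1069, 69 and 306 with array weights, the fold of 1.5 and replicate 4 as a control, and 303 to 505 without 1 array. In cocaine 951 passed, against 241 with the glial covariate, 92 against the fold of 1.5, 281 with replicate 4 as a control, and 542 to 1150 without 1 array. Cocaine minus saline gave 0 (0 to 1 without 1 array). D2 minus D1 gave 119, against 352 with array weights, 61 with the glial covariate, 9 against the fold of 1.5, 18 with replicate 4 as a control, and 50 to 139 without 1 array. The median of D1-enriched genes read in saline was -0.025 to 0.114 without 1 array. Cyclic loess, median centring, other filters, the probe set median, a trend, the RNA quality covariate and D2 arrays alone kept each of these totals within 1.5 times, while in cocaine median centring gave 491 risen and 287 fallen, in place of 773 and 178.

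With the glial covariate Mbp (-0.07), Mobp (-0.16) and Ugt8a (-0.09) changed sign, as the covariate is made from such markers. A call that this covariate ended is not read as glial, because the glial mean did not overlap between the D2 genotypes. Kcna6 changed sign as the median of its probe sets (-0.36), and the cause was not tested. Of 132 named genes that passed, 125 passed without any 1 D2 array and 82 with the glial covariate. Besides Mbp, Mobp and Ugt8a, it ended the calls of Acadl, Adra2c, B2m, Cbx5, Cbx8, Cd4, Cnp, Cst12, Ctss, Drd1, Drd2, Fam107a, Gabra5, Gadd45g, Gdnf, Gja1, Gpc6, Grm3, Gstm5, Gsto1, H2-D1, H2-K1, Htr1b, Il1rap, Kcnd1, Mal, Meg3, Nptx2, Npy1r, Nrn1, Opalin, Pak6, Pcdhb22, Pcdhb3, Pde4d, Pdgfra, Rapgef1, Rgs5, Slc35d3, Slit2, Tet1, Tet2, Tnni1, Tnnt1, Tpm2, Trim25 and Zfp775. Those that no longer passed as the probe set median included Adra2c, Cbx5, Cbx8, Cnp, Fam107a, Foxp2, Mbp, Nptx2 and Pde4d, and for D2 minus D1 Fst, Jmjd1c and Rassf3. With D2 mutant cocaine replicate 4 as a control those that no longer passed included Th, Ddc, Acadl, Cnp, Ctss, Foxp2, Gdnf, Gstm5, Mbp, Mobp, Slit2, Trim25 and Ugt8a. Of 1134 list medians recomputed under alternatives, 1067 moved by less than the spread between arrays. With the replicate number as a block, 1524 genes passed with the drugs weighted equally, 512 in saline, 999 in cocaine, 0 for cocaine minus saline and 140 for D2 minus D1. The deviations of same-numbered D2 arrays correlated by -0.395 to 0.366, and those of differently numbered arrays by -0.311 to 0.456. These ranges overlap, so the numbers were not taken to pair the mice, though a pairing is not excluded. The p-values measure the spread between these mice, and levels below 6 lie near background.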
